A study of Mus musculus with 6 samples.

Results

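Cartilage regulators and matrix genes were followed as 10 genes chosen by symbol, with earlier results of these data known: Sox5, Sox6, Sox9 and Runx3, which encode transcription factors, and Acan, Hapln1, Comp, Matn2, Prg4 and Chad, which encode extracellular matrix proteins of cartilage or joints. They are 10 of the 53801 gene identifiers in the count tables, and the rule lists their symbols and sets no threshold on a measured value. RNA was sequenced from the mouse pre-osteoblast line MC3T3-E1 in 3 scramble libraries and 3 Hdac4-shRNA libraries. Scramble cells carried a lentivirus with a scrambled, non-silencing hairpin, and Hdac4-shRNA cells carried the same ZsGreen1 and puromycin-resistance vector with a short hairpin RNA against Hdac4. Both groups were selected with 5 μg/mL puromycin for 7 days. The labels describe stable infected cells and 3 independent RNA samples for each group, so that an effect of the hairpin and a difference between these infected populations cannot be told apart. The labels do not say which of the 3 Hdac4 hairpins the sequenced cells carried. The study's text names Hdac4-shRNA3.

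In cartilage, SOX9 switches on the chondrocyte matrix genes, and SOX5 and SOX6 are known to bind beside it and to strengthen its action on genes such as Col2a1 and Acan. RUNX3 acts with RUNX2 in the later maturation of chondrocytes. Aggrecan, encoded by Acan, is held on hyaluronan by the link protein that Hapln1 encodes, whereas COMP, matrilins and chondroadherin connect collagen fibrils, proteoglycans and cells, and lubricin, encoded by Prg4, coats joint surfaces. HDAC4 is a class IIa histone deacetylase that binds MEF2 and RUNX2 proteins and is known as a repressor of chondrocyte maturation.

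Each library held 29096544 to 31651826 reads counted on genes. For Hdac4 itself, counts of 1243, 1204 and 1136 in scramble cells compared with 950, 927 and 887 in Hdac4-shRNA cells, that is 73.6% of the scramble level after normalization (log2 fold change -0.44, SE 0.057, edgeR adjusted p = 8.98e-07). Of its 15813 exon bases, 3536 are shared with Gm26720. Pre-osteoblast identity was uneven. Runx2 and Spp1 were abundant in both groups, but Alpl had at most 3 counts in any library, and Ibsp was at 0 in all scramble libraries. All 7 skeletal muscle genes examined, among them Myod1 and Des, were detected in scramble libraries and were lower in Hdac4-shRNA libraries. Their summed level was 914 to 951 CPM (counts scaled to the normalized library size) in scramble and 130 to 150 CPM in Hdac4-shRNA libraries. In bulk RNA, fewer cells of a type and less RNA per cell cannot be told apart.

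Sox5, Sox6, Runx3 and Comp were higher in Hdac4-shRNA libraries, no member was lower, Sox9, Matn2 and Prg4 were not called, and Acan had no count in any library. The expression of 7 of the 10 members was high enough for testing by edgeR (quasi-likelihood F test, p-values adjusted by the Benjamini-Hochberg method over 14531 genes). Of these 7, 4 were called higher (adjusted p-value below 0.05 and log2 fold change beyond 0.05), and 0 were called lower. With a p-value below 0.05 before adjustment, no member was lower either, and none was called lower by DESeq2 or limma-voom. Over all genes tested, 75.1% were called, 38% as higher and 37.1% as lower, so a call was the common outcome in this comparison. With a log2 fold change beyond 0.5 required, the same 4 members were called, against 24.6% of all genes called higher and 19.8% lower (44.4% together), and beyond 1 Sox5, Sox6 and Comp were called, against 27.1% of all genes (16.5% higher, 10.6% lower). Sox6 and Comp passed the filter on low counts only through the Hdac4-shRNA libraries, so only a high level there could bring them into the test. Of the 5 members that passed in both groups, 2 were called higher and 3 were not called. Hapln1 and Chad, which were too low to be tested, also had more counts in every Hdac4-shRNA library than in any scramble library, which makes 6 of the 10 members with groups that did not overlap. Among the 7 tested members, the groups did not overlap for 4. Over all genes tested, the groups did not overlap for 76.8%, with the Hdac4-shRNA libraries above for 38.8% and below for 38%. The median log2 fold change was 0.49 for the 5 members that passed in both groups and 0.73 with Sox6 and Comp included, beside 0.014 over all genes tested.

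**Figure D1:**
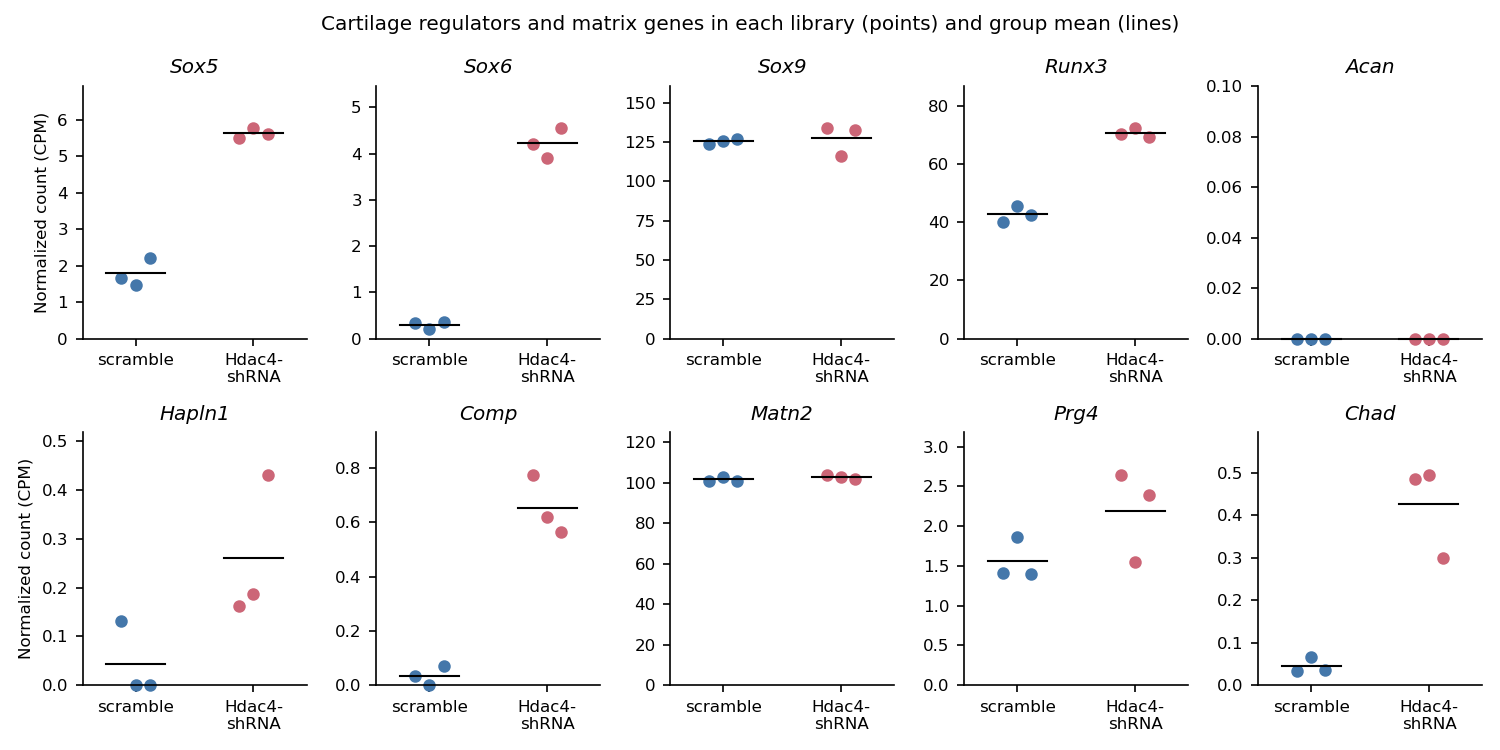
Normalized counts (CPM, linear axes) of the 10 genes, with 1 point per library, scramble in blue and Hdac4-shRNA in red, and a line at each group mean. The 3 Hdac4-shRNA points lie above the 3 scramble points for Sox5, Sox6, Runx3, Hapln1, Comp and Chad, the points overlap for Sox9, Matn2 and Prg4, and all 6 lie at 0 for Acan.

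Sox5 (ENSMUSG00000041540), which encodes a SoxD protein without an activation domain of its own, lies on the minus strand of chr6:143828425-144781977 (GRCm38). It was counted 51, 44 and 63 times in scramble libraries and 170, 186 and 169 times in Hdac4-shRNA libraries. The counts were several times higher in every Hdac4-shRNA library, and the Hdac4-shRNA libraries were close to each other. The level rose from 1.78 ± 0.383 CPM (SD, n = 3) to 5.63 ± 0.139 CPM (SD, n = 3), a log2 fold change of 1.66 (SE 0.169, 95% interval 1.31 to 2.01, edgeR adjusted p = 3.3e-08). Sox5 ranked 2365 among 14531 genes by the size of its fold change. Its exons share 1330 of 14376 bases with the antisense gene Sox5os1, for which all 6 libraries had 0 counts, and the reads carry no strand.

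Sox6 (ENSMUSG00000051910), the partner of Sox5 in SOX9 complexes, lies on the minus strand of chr7:115470872-116038796 and shares no exon bases with another gene. It was counted 10, 6 and 10 times in scramble libraries and 130, 126 and 137 times in Hdac4-shRNA libraries. Sox6 was thus barely detected in scramble cells and clearly detected in all 3 Hdac4-shRNA libraries. Its level was 0.293 ± 0.0809 CPM (SD, n = 3) and 4.22 ± 0.321 CPM (SD, n = 3), respectively. The log2 fold change was 3.83 (SE 0.257, 95% interval 3.3 to 4.37, edgeR adjusted p = 5.33e-11), and by size it ranked 585 among the genes tested. From the summed counts alone, the ratio was 14.4 (95% interval 9.69 to 22.4, counting error only).

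Promoter sequence is shown for Sox5 and Sox6 because they rose together. Windows of 300 bases, with 250 before and 50 after an annotated start, came from RefSeq (GRCm38.p6), which gave 12 windows for 6 of the 10 members and none for Sox9, Comp, Matn2 and Prg4. The 3 motifs searched, on both strands, were AACAAT for SOX proteins, TGTGGT for RUNX proteins and, for MEF2 proteins, CTA and TAG with any 4 bases between them, and no match in a printed window overlapped another. The MEF2 pattern is looser than the usual MEF2 site, in which the 4 middle bases are A or T. Over all 32851 windows, 10.7% held the SOX letters, 16.8% the RUNX letters and 3.69% the MEF2 letters. Sox6 has 6 windows, and those printed are the ones with a MEF2 or a SOX match, chosen after the matches were seen. Matches are in capitals, and each line runs 5′ to 3′ on the strand of the gene.
Sox5 (chr6:143947057-143947356, minus strand): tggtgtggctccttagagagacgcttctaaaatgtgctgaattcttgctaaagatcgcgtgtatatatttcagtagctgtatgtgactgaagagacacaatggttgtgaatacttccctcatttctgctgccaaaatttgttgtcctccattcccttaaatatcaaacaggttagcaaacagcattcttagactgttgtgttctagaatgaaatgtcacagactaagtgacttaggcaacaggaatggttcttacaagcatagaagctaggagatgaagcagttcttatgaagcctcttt
Sox6 (chr7:116030998-116031297, minus strand): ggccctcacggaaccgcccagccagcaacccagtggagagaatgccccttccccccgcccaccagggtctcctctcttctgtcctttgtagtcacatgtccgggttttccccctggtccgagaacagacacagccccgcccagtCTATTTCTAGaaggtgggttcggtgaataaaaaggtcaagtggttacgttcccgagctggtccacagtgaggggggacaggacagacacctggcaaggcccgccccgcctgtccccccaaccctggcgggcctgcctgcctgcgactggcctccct
Sox6 (chr7:115824661-115824960, minus strand): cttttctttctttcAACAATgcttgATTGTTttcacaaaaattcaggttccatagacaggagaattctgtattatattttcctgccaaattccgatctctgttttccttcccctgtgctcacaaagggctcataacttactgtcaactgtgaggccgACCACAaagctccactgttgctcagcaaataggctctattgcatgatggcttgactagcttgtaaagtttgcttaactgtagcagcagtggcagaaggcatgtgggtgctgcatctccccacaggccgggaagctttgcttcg
The Sox5 window, with 39.7% GC and 3 CpG dinucleotides, held none of the motifs. It lies inside the gene, far from the upstream end at 144781977, so starts further upstream were not searched. In the Sox6 window with 63.3% GC and 13 CpG dinucleotides, the MEF2 letters began at -106 relative to the start. Their middle bases, TTTC, include a C, so this match lacks the usual form of a MEF2 site. The other Sox6 window, with 45% GC, held the SOX letters at -236 and -225 and the RUNX letters at -93. The median over all windows was 52.7% GC and 7 CpG dinucleotides. A match describes letters in the window and does not show binding, and the counts do not separate the 6 Sox6 starts.

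Sox9 (ENSMUSG00000000567, chr11:112782224-112787760, plus strand), the master regulator of the chondrocyte lineage, did not differ between the groups beyond their spread. It was counted 3789, 3766 and 3629 times in scramble libraries and 4142, 3728 and 3992 times in Hdac4-shRNA libraries. The groups overlapped, and the Hdac4-shRNA libraries varied more than the scramble libraries. The levels were 126 ± 1.66 CPM (SD, n = 3) and 127 ± 10.2 CPM (SD, n = 3), with a log2 fold change of 0.02 (SE 0.0514, edgeR adjusted p = 0.749). The 95% interval of the log2 fold change ran from -0.09 to 0.13, that is from 0.94 to 1.09 times the scramble level. The sign of this difference was not stable, since it turned to -0.01 without the Hdac4-shRNA replicate 1.

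Levels of different genes were compared as TPM, which divide counts by exon length and scale every library to the same total. Within each library, the summed level of Sox5 and Sox6 was 0.461, 0.38 and 0.576% of the Sox9 level in scramble and 2.06, 2.38 and 2.17% in Hdac4-shRNA. The Sox6 level was 19, 13.2 and 15.4% of the Sox5 level in scramble and 74.1, 65.7 and 78.6% in Hdac4-shRNA. Both shares were higher in all 3 Hdac4-shRNA libraries than in all 3 scramble libraries (exact permutation test of the share of Sox9, two-sided p = 0.1, which is the lowest that 3 against 3 can give). The share of Sox9 restates the separation of Sox5 and Sox6 given above over a similar Sox9 level, so its test adds nothing to it. The scramble shares of Sox6 rest on 6 to 10 counts per library, and Sox6 passed the filter only through the Hdac4-shRNA libraries. Sox9 transcripts remained far more abundant than those of Sox5 and Sox6 in both groups.

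**Figure D2:**
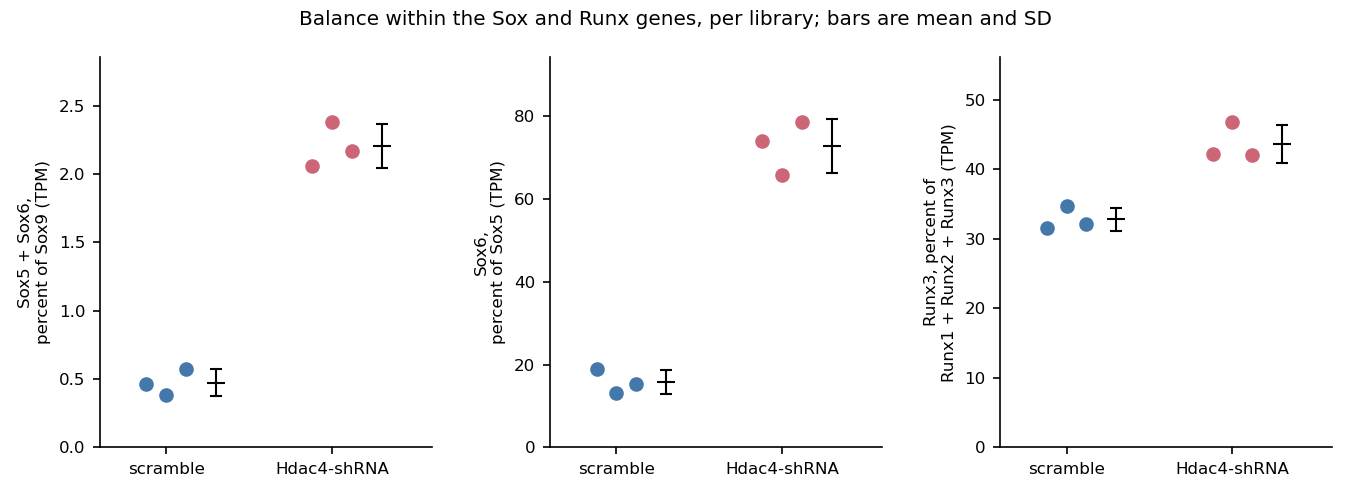
Shares computed within each library from levels per length (TPM, linear axes): Sox5 plus Sox6 as a percent of Sox9, Sox6 as a percent of Sox5, and Runx3 as a percent of the 3 Runx genes together, with points for libraries and bars for mean and SD of 3 libraries. In each panel the 3 Hdac4-shRNA points lie above the 3 scramble points. Sox6 had 6 to 10 counts in each scramble library.

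Runx3 (ENSMUSG00000070691, chr4:135120652-135177990, plus strand), a Runt-domain factor of maturing chondrocytes, was counted 1221, 1361 and 1215 times in scramble libraries and 2178, 2330 and 2079 times in Hdac4-shRNA libraries. The 2 groups were well separated and the replicates close together. The level rose from 42.7 ± 2.76 CPM (SD, n = 3) to 70.6 ± 1.63 CPM (SD, n = 3), a ratio of 1.65 and a log2 fold change of 0.73 (SE 0.0547, 95% interval 0.61 to 0.84, edgeR adjusted p = 3.39e-10). Runx1, its hematopoietic relative, had a log2 fold change of -0.04 (SE 0.0574, edgeR adjusted p = 0.494). Runx2, the osteoblast regulator, had one of 0.19 (SE 0.0584, adjusted p = 0.00719), with overlapping groups, and was not called without scramble replicate 2 (log2 fold change 0.13, adjusted p = 0.0731). Cbfb, which encodes the partner subunit of all RUNX proteins, rose by 0.34 on the log2 scale (SE 0.057, adjusted p = 2.69e-05). Per length, Runx3 made up 31.6, 34.7 and 32.2% of the 3 Runx genes together in scramble and 42.2, 46.8 and 42% in Hdac4-shRNA, without overlap.

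Runx3 is known to be transcribed from a distal and a proximal promoter, and both RefSeq windows are printed because the counts sum over the transcripts of both.
Runx3 (chr4:135120395-135120694, plus strand): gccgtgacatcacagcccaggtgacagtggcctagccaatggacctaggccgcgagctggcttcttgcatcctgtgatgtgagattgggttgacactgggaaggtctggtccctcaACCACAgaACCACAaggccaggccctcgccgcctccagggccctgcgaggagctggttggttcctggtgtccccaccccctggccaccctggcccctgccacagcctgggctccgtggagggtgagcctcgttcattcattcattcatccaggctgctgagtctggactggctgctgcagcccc
Runx3 (chr4:135152295-135152594, plus strand): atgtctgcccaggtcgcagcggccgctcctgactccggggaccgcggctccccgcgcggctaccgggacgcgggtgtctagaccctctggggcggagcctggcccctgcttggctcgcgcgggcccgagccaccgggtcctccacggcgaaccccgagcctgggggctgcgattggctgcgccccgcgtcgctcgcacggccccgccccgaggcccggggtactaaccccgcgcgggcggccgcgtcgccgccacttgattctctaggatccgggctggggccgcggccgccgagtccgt
The upper, distal window (63.7% GC, 8 CpG dinucleotides) held the RUNX letters at -134 and -126, both on the opposite strand to the gene. The lower, proximal window (77.3% GC, 45 CpG dinucleotides) held none of the motifs. For comparison, 3 in 4 windows of all genes had at most 20 CpG dinucleotides.

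Acan (ENSMUSG00000030607, chr7:79053483-79115099, plus strand), which encodes the large proteoglycan aggrecan, had 0 counts in all 6 libraries. At these depths, a count of 0 allows a level of up to 0.0931 to 0.105 CPM per library (3 counts, counting error only), or 0.0395 to 0.0432 TPM, and a difference below this was not detectable. The rise of Sox5 and Sox6 was thus measured in libraries without detected aggrecan transcripts. The Acan window is shown as that of the member with no transcripts. It is rich in CpG, with 31 dinucleotides and 74% GC, and held none of the 3 motifs.
Acan (chr7:79052976-79053275, plus strand): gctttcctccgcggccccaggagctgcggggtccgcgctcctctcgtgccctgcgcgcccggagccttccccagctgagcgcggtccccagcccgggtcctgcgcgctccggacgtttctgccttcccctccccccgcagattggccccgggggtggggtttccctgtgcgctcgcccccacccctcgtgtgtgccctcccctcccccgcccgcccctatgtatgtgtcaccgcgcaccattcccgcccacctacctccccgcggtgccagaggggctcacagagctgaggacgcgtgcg

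Hapln1 (ENSMUSG00000021613, chr13:89539796-89611652, plus strand), which encodes the link protein that ties aggrecan to hyaluronan, was near the limit of detection. It was counted 4, 0 and 0 times in scramble libraries and 5, 6 and 13 times in Hdac4-shRNA libraries, too few for the test. Every Hdac4-shRNA library was above every scramble library, by as little as 1 count. The ratio of the summed counts was 5.72 (95% interval 1.97 to 22.7, counting error only). When no filter on low counts was used, 28015 genes were tested and the log2 fold change was 2.40 (edgeR adjusted p = 0.0252). In that fit, also used for Chad below, the median log2 fold change over all genes was 0.252. Its RefSeq window held the RUNX letters at -160.

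Lectican and link protein genes lie side by side in the genome, and the other pairs were read beside Acan and Hapln1. Versican, encoded by Vcan, is the lectican of embryonic and fibrous tissue. Vcan (chr13:89655312-89742509, minus strand) lies 43.7 kb from Hapln1 and was abundant, at 406 ± 8.41 CPM (SD, n = 3) in scramble and 694 ± 28.9 CPM (SD, n = 3) in Hdac4-shRNA libraries (log2 fold change 0.77, SE 0.0398, edgeR adjusted p = 7.87e-13). Hapln3, which lies on the strand opposite to Acan and directly beyond its end, was counted 0, 0 and 1 times in scramble libraries and 6, 6 and 10 times in Hdac4-shRNA libraries. Hapln4, the link protein gene next to neurocan, rose from 2.58 ± 0.109 to 6.03 ± 0.68 CPM (SD, n = 3; log2 fold change 1.22, SE 0.148, edgeR adjusted p = 3.61e-07). Versican was therefore the only lectican with more than 5 counts in any library.

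Comp (ENSMUSG00000031849, chr8:70373558-70382066, plus strand), which encodes a pentameric thrombospondin of cartilage and tendon, was counted 1, 0 and 2 times in scramble libraries and 24, 20 and 17 times in Hdac4-shRNA libraries. It was low throughout, but each Hdac4-shRNA library had at least 17 counts and no scramble library more than 2. The level rose from 0.0343 ± 0.0351 to 0.654 ± 0.109 CPM (SD, n = 3), a log2 fold change of 4.12 (SE 0.636, 95% interval 2.79 to 5.45, edgeR adjusted p = 8.88e-06). The ratio of summed counts was 19.4, with a wide 95% interval of 6.33 to 96.7 (counting error only). Without scramble replicate 3, the log2 fold change moved to 4.99 (adjusted p = 4.25e-05). The other thrombospondins did not share one direction. Thbs1 and Thbs2, which encode matricellular trimers, had log2 fold changes of -0.58 (adjusted p = 5.58e-11) and -1.18 (adjusted p = 6.4e-16) and were far more abundant than Comp, whereas the pentamer gene Thbs3 rose by 0.97 on the log2 scale (adjusted p = 4.14e-09). Thbs4, a further pentamer gene, was counted 0, 0 and 0 times in scramble and 5, 0 and 4 times in Hdac4-shRNA libraries.

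Matn2 (ENSMUSG00000022324, chr15:34306677-34436273, plus strand), which encodes the broadly expressed matrilin-2, was the most abundant of the matrix members and differed little between groups. It was counted 3073, 3079 and 2873 times in scramble libraries and 3211, 3327 and 3068 times in Hdac4-shRNA libraries. After normalization the groups overlapped. The levels were 101 ± 1.27 and 103 ± 0.954 CPM (SD, n = 3), with a log2 fold change of 0.02 (SE 0.0422, 95% interval -0.07 to 0.11, edgeR adjusted p = 0.645). Upper quartile normalization, which moved the median of all genes to 0.103, called it higher at a log2 fold change of 0.11 (adjusted p = 0.0226). Its exons share 70 of 6263 bases with 9430069I07Rik.

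The cartilage matrilins differed from Matn2 in level. Matn1, which encodes the classical cartilage matrilin, was counted 0, 0 and 0 times in scramble and 0, 1 and 2 times in Hdac4-shRNA libraries. Matn3 was counted 6, 6 and 6 times in scramble libraries and 0, 1 and 1 times in Hdac4-shRNA libraries, a ratio of 0.106 (95% interval 0.0119 to 0.443, counting error only), with no test since it was too low. Matn4 had 2, 1 and 3 counts against 13, 15 and 11, with a log2 fold change of 2.56 (SE 0.578, edgeR adjusted p = 0.000549), and passed the filter only through the Hdac4-shRNA libraries. Matrilins other than Matn2 were thus at trace levels in both groups, with Matn3 lower and Matn4 higher in the Hdac4-shRNA libraries.

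Prg4 (ENSMUSG00000006014, chr1:150449412-150466165, minus strand), which encodes lubricin, was counted 43, 56 and 40 times in scramble libraries and 82, 50 and 72 times in Hdac4-shRNA libraries. Hdac4-shRNA replicate 2 lay within the scramble range, so the groups overlapped. The levels were 1.56 ± 0.269 and 2.2 ± 0.574 CPM (SD, n = 3), with a log2 fold change of 0.49 (SE 0.242, 95% interval -0.02 to 1.00, edgeR adjusted p = 0.0747). The call depended on single libraries: the log2 fold change was 0.69 without Hdac4-shRNA replicate 2 (adjusted p = 0.012) and 0.63 without scramble replicate 2 (adjusted p = 0.0455). Over all alternatives the adjusted p-value ranged from 0.012 to 0.271. Of its 4280 exon bases, 204 are shared with Tpr, which had a log2 fold change of -0.28.

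Chad (ENSMUSG00000039084, chr11:94565047-94569127, plus strand), which encodes chondroadherin, a leucine-rich protein that binds cells and collagen, was counted 1, 2 and 1 times in scramble libraries and 15, 16 and 9 times in Hdac4-shRNA libraries. All Hdac4-shRNA libraries were above all scramble libraries, but Chad was too low for the test. The ratio of summed counts was 9.54 (95% interval 3.45 to 36.7, counting error only), and without a filter the log2 fold change was 3.11 (edgeR adjusted p = 0.000264). With any scramble replicate or Hdac4-shRNA replicate 3 left out, Chad entered the test and was called higher. Its scramble counts were too low for the filter, so only the Hdac4-shRNA libraries could bring it into these tests. Chad lies within the span of Acsf2, a gene on the other strand with which it shares no exon bases. Acsf2 was counted 258, 270 and 225 times in scramble and 509, 681 and 552 times in Hdac4-shRNA libraries, and since the reads carry no strand, intronic reads of Acsf2 cannot be told apart from reads of Chad.

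Ordered by level per length, the members fell into an abundant and a scarce set in both groups. Sox9 was highest in scramble libraries (91.3 ± 1.36 TPM), followed by Matn2 (48.6 ± 0.356 TPM) and Runx3 (25.6 ± 1.54 TPM, each SD, n = 3), and none of these overlapped. Prg4 (1.09 ± 0.182 TPM) and Sox5 (0.373 ± 0.0817 TPM) came next. Chad, Sox6, Comp and Hapln1 lay at 0.0801 TPM or lower and could not be ordered, since neighbours overlapped. In Hdac4-shRNA libraries the abundant 3 kept their order, with Sox9 at 100 ± 9.22 TPM, Matn2 at 53.5 ± 1.18 TPM and Runx3 at 45.9 ± 1.02 TPM (SD, n = 3). Below them, Prg4 (1.67 ± 0.458 TPM) overlapped Sox5 (1.27 ± 0.0136 TPM). Sox6 (0.925 ± 0.0745 TPM) was below Sox5 but overlapped Chad, and Chad overlapped Comp. TPM values were not corrected for library composition, so differences between the groups are given from CPM.

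**Figure D3:**
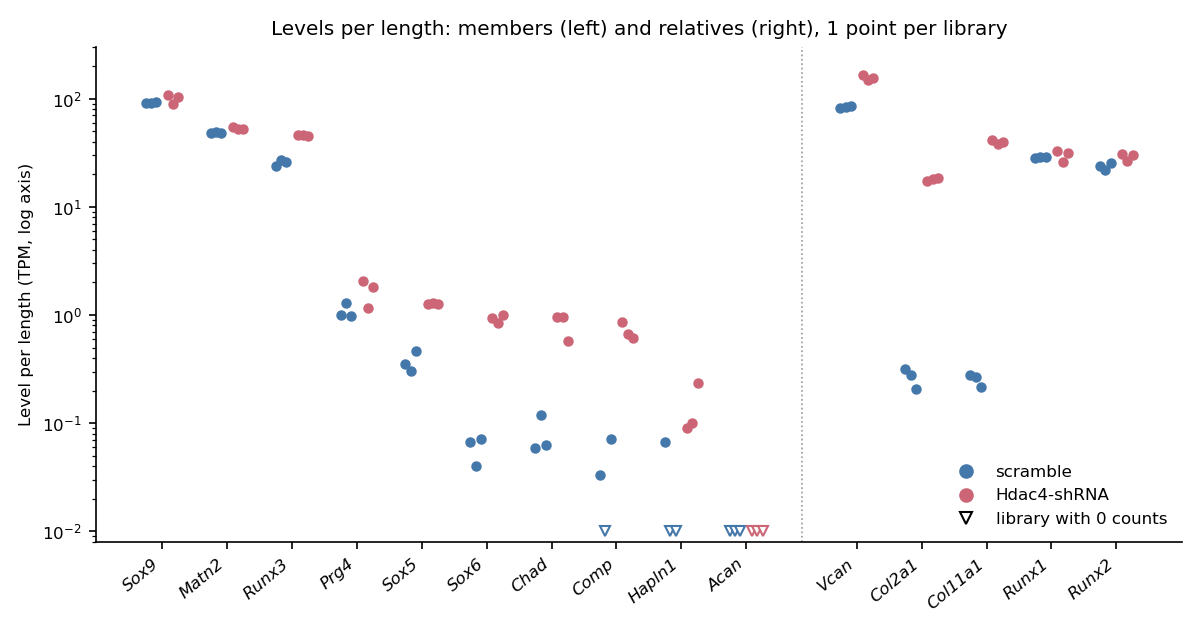
Level per length (TPM, log axis) of the 10 members and of 5 relatives in each of the 6 libraries, scramble in blue and Hdac4-shRNA in red, with open triangles for libraries with 0 counts. Sox9, Matn2 and Runx3 lie at 24 TPM or more in all libraries, while the other members lie far lower and Acan is at 0 throughout.

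The other cartilage genes were read from 6 lists that hold none of the members. Together these lists name 73 genes, of which 42 were tested, 26 were called higher, 11 were called lower and 5 were not called. Their median log2 fold change was 0.59. Of the 31 that were not tested, 8 had no count in any library. The shares called, here and for each list below, can be read against 75.1% over all genes, with 38% called higher and 37.1% lower. Of the 42 tested genes, Matn4, Cilp2, Pax9, Col10a1 and Pth1r passed the filter only through the Hdac4-shRNA libraries, and Foxa2 and Phospho1 only through the scramble libraries, so that their entry into the test rested on the level in that group. Pax9 was also past the cutoff in 2 scramble libraries, and Phospho1 in 2 Hdac4-shRNA libraries. Of the 35 genes that passed in both groups, 21 were called higher and 9 lower. The median of 0.59 is over all 42 tested genes.

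Among 18 other cartilage matrix genes, 7 were tested, and 6 of these were called higher, 0 lower, and 1 was not called (median log2 fold change 2.52). Without Matn4 and Cilp2, which passed the filter only through the Hdac4-shRNA libraries, 4 of 5 were called higher and the median was 2.09. The remaining 11 were too low for the test, among them Matn1, Matn3, and Col9a1, Ucma and Scrg1 with no count at all. Col2a1, the main collagen of cartilage and a classical SOX9 target, was counted 30, 26 and 18 times in scramble and 1495, 1683 and 1586 times in Hdac4-shRNA libraries (log2 fold change 5.93, SE 0.111, edgeR adjusted p = 8.21e-20). Col11a1, which encodes a collagen that nucleates the type II fibrils, was counted 36, 34 and 26 times in scramble and 4923, 4868 and 4674 times in Hdac4-shRNA libraries. Its log2 fold change of 7.16 (SE 0.081, edgeR adjusted p = 7.42e-23) was the largest of the list. Col9a3, a chain of the collagen on the fibril surface, rose by 2.09 on the log2 scale (SE 0.213, adjusted p = 3.39e-08). Fibrillar cartilage collagens were thus higher in Hdac4-shRNA libraries, while Acan, Col9a1 and Matn1 had at most 2 counts in any library. None of these results was independent of the others, since all come from the same 6 libraries.

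Of 19 other chondrogenic transcription factors and receptors, 10 were tested, with 6 called higher, 2 lower and 2 not called (median log2 fold change 0.23). Of the 8 that passed the filter in both groups, 5 were called higher and 1 lower. Pax9, a factor of early skeletal condensations, rose from 0.35 ± 0.0764 to 7.46 ± 0.368 CPM (SD, n = 3; log2 fold change 4.40, adjusted p = 1.79e-13 by edgeR), and was among the genes that passed the filter only through the Hdac4-shRNA libraries. Trps1, a repressor in growth plate chondrocytes, and Foxc1, a factor of mesenchymal condensations, rose by 0.98 (adjusted p = 4.57e-12) and 0.59 (adjusted p = 1.71e-07) on the log2 scale. Zbtb20, a zinc finger repressor needed for terminal chondrocyte differentiation, had a log2 fold change of -0.51 (adjusted p = 7.45e-06). The other gene called lower, Foxa2, was counted 53, 82 and 73 times in scramble and 2, 12 and 4 times in Hdac4-shRNA libraries. Its log2 fold change was -3.58, the larger fall, but it passed the filter only through the scramble libraries. Sox10, Nkx3-2, Barx1 and Pax1 had no count in any library.

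Of 12 genes of the hyaluronan scaffold, 8 were tested, with 5 called higher and 3 lower (median log2 fold change 0.89). The synthase genes went in different directions. Has1 was counted 1720, 1824 and 1712 times in scramble libraries and 49, 59 and 57 times in Hdac4-shRNA libraries (log2 fold change -5.06, SE 0.0894, edgeR adjusted p = 3.34e-20). Has2 rose from 35.6 ± 1.18 to 80.6 ± 5.98 CPM (SD, n = 3; log2 fold change 1.18, edgeR adjusted p = 4.36e-13). Cemip, which encodes a hyaluronan-degrading protein, rose by 2.89 on the log2 scale (adjusted p = 4.97e-17). The hyaluronan receptor genes Cd44 and Hmmr had log2 fold changes of -0.49 (adjusted p = 1.01e-08) and -1.91 (adjusted p = 7.63e-17), and Hmmr is also a gene of the mitotic spindle.

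Of 13 genes of growth plate signalling and hypertrophy, 10 were tested, with 5 called higher, 3 lower and 2 not called (median log2 fold change 0.94). Of the 7 that passed the filter in both groups, 3 were called higher and 2 lower, and their median was 0.14. Col10a1, the collagen of hypertrophic chondrocytes, was counted 1, 1 and 1 times in scramble and 10, 19 and 14 times in Hdac4-shRNA libraries (log2 fold change 3.62, SE 0.656, edgeR adjusted p = 5.8e-05). The ratio of its summed counts was 13.7 (95% interval 4.38 to 68.9, counting error only), and it passed the filter only through the Hdac4-shRNA libraries and not without Hdac4-shRNA replicate 2. Mmp13, which encodes the collagenase of late hypertrophic cartilage and of osteoblasts, rose from 4.39 ± 0.468 to 37.6 ± 4 CPM (SD, n = 3; log2 fold change 3.10, edgeR adjusted p = 4.46e-16). Gli1, a hedgehog target, and Fgfr3, a brake on chondrocyte proliferation, rose by 1.99 (adjusted p = 6.62e-09) and 1.73 (adjusted p = 6.23e-08) on the log2 scale. Spp1, which encodes osteopontin, had a log2 fold change of -0.62 (adjusted p = 1.82e-12). A larger fall was that of Phospho1, counted 49, 45 and 57 times in scramble and 11, 10 and 12 times in Hdac4-shRNA libraries. Its log2 fold change was -2.25, but it passed the filter only through the scramble libraries. Of the 2029 exon bases of Phospho1, 1818 are shared with Zfp652 and Abi3. Vegfa, with a log2 fold change of -0.09 (adjusted p = 0.0473), was not called under DESeq2, with the other normalizations, with at least 10 counts in every library, or without Hdac4-shRNA replicate 1, Hdac4-shRNA replicate 3 or scramble replicate 3.

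Of 7 genes of aggrecan-cleaving proteases and their inhibitor, 4 were tested, with 3 called higher and 1 lower (median log2 fold change 0.82). Timp3, the main inhibitor of aggrecanases, rose from 128 ± 5.16 to 558 ± 38.6 CPM (SD, n = 3; log2 fold change 2.13, edgeR adjusted p = 3.12e-18). The aggrecanase genes Adamts4 and Adamts5 rose by 1.14 (adjusted p = 2.2e-10) and 0.50 (adjusted p = 6e-05) on the log2 scale, and Adamts1 had a log2 fold change of -0.63 (adjusted p = 7.18e-08). Transcripts of these enzymes and of the inhibitor were thus detected in libraries without detected Acan transcripts. Of 4 thrombospondins other than Comp, 3 were tested, with 1 called higher and 2 lower.

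**Figure D4:**
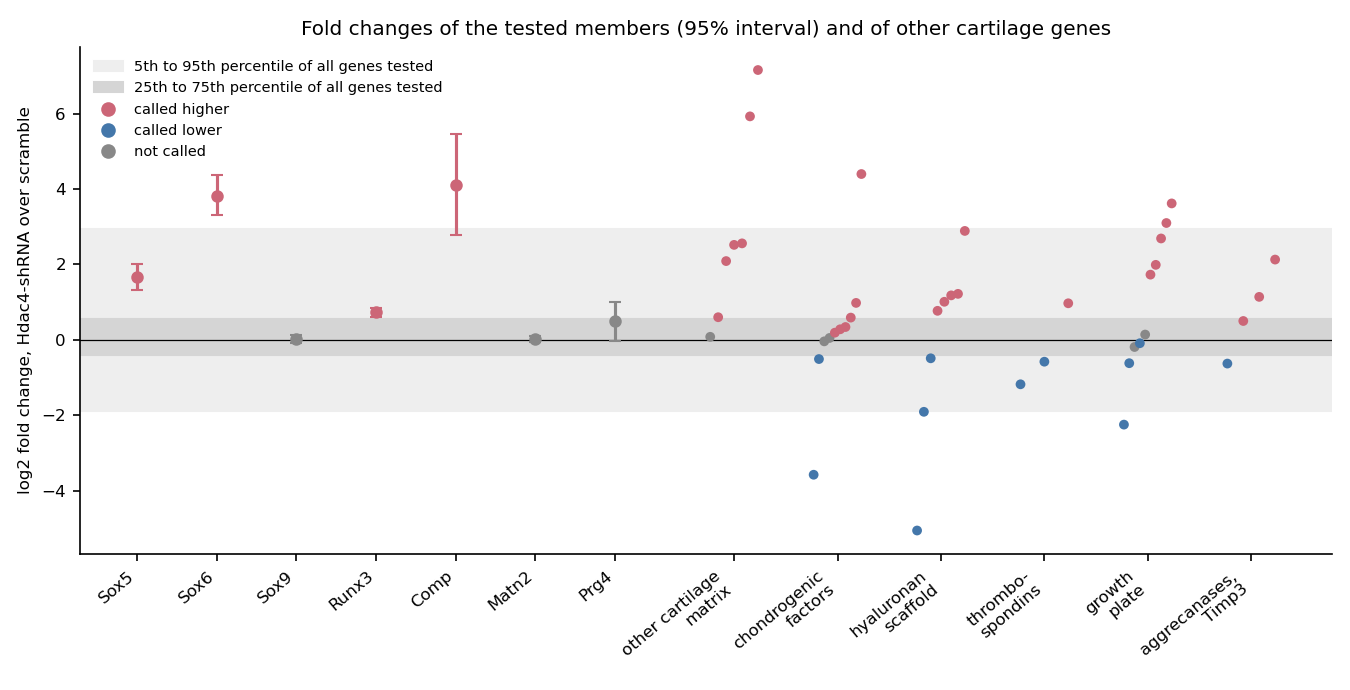
Log2 fold change (Hdac4-shRNA over scramble) of the 7 tested members with 95% intervals and of the tested genes of the 6 cartilage lists, coloured by call, with grey bands for the middle 50% and 90% of all 14531 genes. Sox5, Sox6, Runx3 and Comp lie above the inner band together with Col2a1 and Col11a1, the highest points among the other cartilage matrix genes, while Sox9 and Matn2 lie on 0.

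Marker genes of the cell types that the cultures could hold moved with the groups as well. Of 9 chondrocyte markers, Acan, Col9a1 and Ucma were at 0 in all libraries, Matn1, Matn3, Cnmd and Snorc had at most 6 counts, and the summed level was 125 to 128 CPM in scramble and 168 to 186 CPM in Hdac4-shRNA libraries, where Col2a1 was higher and Sox9 overlapped. Osteoblast markers summed to 3579 to 3610 CPM in scramble and 12975 to 13580 CPM in Hdac4-shRNA libraries, with 5 of 7 tested genes called higher, 1 lower and 1 not called. This sum turned on Col1a1, the main bone collagen gene, at 338 ± 14.4 and 11015 ± 326 CPM (SD, n = 3). Without Col1a1 the sum was lower in Hdac4-shRNA libraries, at 3228 to 3288 CPM in scramble and 2169 to 2240 CPM in Hdac4-shRNA, and Spp1 made up most of it. Of 6 tendon markers, 4 were tested, with 3 called higher and 1 lower (224 to 232 against 342 to 377 CPM), and the defining marker Tnmd was at 0. Scx was the lower one, at 40.2 CPM in scramble and 15.6 CPM in Hdac4-shRNA libraries (log2 fold change -1.36, edgeR adjusted p = 2.09e-10). The tendon sum was higher through Egr1 (187 against 280 CPM), Fmod (0.0226 against 52.1 CPM) and Mkx (0.957 against 10.4 CPM). The 7 skeletal muscle markers were all called lower (median log2 fold change -2.52). Adipocyte markers summed to 43.1 to 46.8 CPM in scramble and 8.89 to 10.1 CPM in Hdac4-shRNA libraries, with 2 of 7 genes tested, both lower, and Cfd and Lep at 0. Neural and glial (1.96 to 2.21 against 4.69 to 5.02 CPM, 2 of 7 genes tested and both higher, Snap25 and Sox10 at 0), endothelial (0.262 to 0.421 against 2.81 to 3.16 CPM, 1 of 4 genes tested and higher) and T cell genes (0.393 to 1.00 against 0.217 to 0.743 CPM, 1 of 5 tested and lower, Cd3e and Cd8a at 0) were scarce. The part of these shifts in the values of the members was not tested. Of the marker genes tested, Fmod, Sp7, Syt1 and Pecam1 passed the filter on low counts only through the Hdac4-shRNA libraries, and Lck and Ckm only through the scramble libraries. Their entry into the test thus rested on the level in that group. Over all genes tested, 38% were called higher and 37.1% lower.

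**Figure D5:**
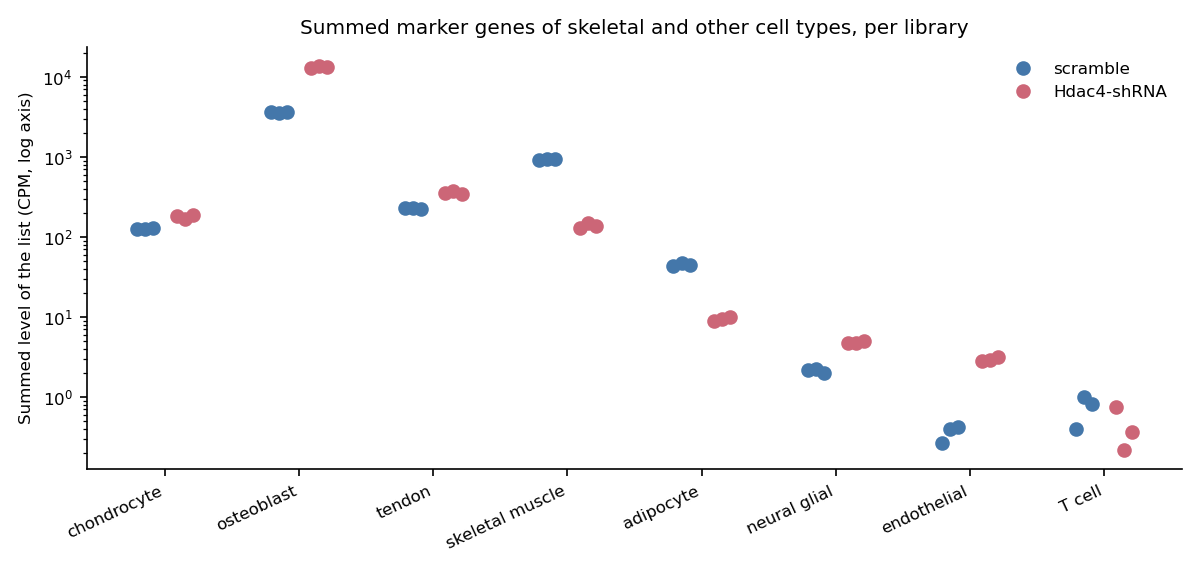
Summed level (CPM, log axis) of 8 marker lists in each library, scramble in blue and Hdac4-shRNA in red. Chondrocyte, osteoblast, tendon, neural or glial and endothelial sums are higher in all 3 Hdac4-shRNA libraries, muscle and adipocyte sums are lower in all 3, and T cell sums overlap. The osteoblast sum is higher through Col1a1 and lower without it. The tendon sum is higher through Egr1, Fmod and Mkx, while Scx is lower.

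The nearest tested protein-coding genes on each side of the members along the chromosome, outside the span of the member, moved in both directions. Hapln1 lies between Vcan and Edil3, which is 217 kb away and rose by 2.57 on the log2 scale (edgeR adjusted p = 3.46e-18). Of the neighbours of Sox6, Insc, 620 kb away, rose by 1.09, whereas 1110004F10Rik was not called (log2 fold change -0.03). Both neighbours of Sox5, Etnk1 (596 kb away) and Bcat1 (212 kb away), were lower, with log2 fold changes of -0.26 and -0.57. Both neighbours of Sox9, Kcnj2 (1710 kb away) and Slc39a11 (457 kb away), were higher, at 1.2 and 1.1, and Sox9 itself was not called. The neighbours of Comp, Upf1 (0.43) and Crtc1 (0.8), and those of Chad, Rsad1 (0.67) and Lrrc59 (0.19), were called higher, as were both of Hapln1. Both neighbours were called higher for Sox9, Hapln1, Comp and Chad and lower for Sox5 and Matn2, and the other 4 members had neighbours with different calls. Over all genes tested, 75.1% were called, 38% as higher and 37.1% as lower.

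Across the 6 libraries, the gene whose centred log2 profile was closest to that of Sox5 was Cyp4f17 (root mean square difference 0.0611), and that closest to Sox6 was Lgalsl (0.0828). The closest to Runx3 was Dcaf4 (0.0143), to Sox9 Swt1 (0.0224) and to Matn2 Lpin2 (0.0127). For the scarcer genes the closest profiles were less alike, with Gm6526 for Comp (0.115) and Gm22362 for Prg4 (0.0903). These are descriptions over 6 libraries in 2 groups.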

How the data were processed

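RNA of 6 libraries (3 scramble, 3 Hdac4-shRNA) was poly-A selected and sequenced with an unstranded kit. The authors deposited raw read counts per Ensembl gene, without normalization. The submitters' processing notes name FastQC, STAR 2.7.3a, HTSeq 0.12.4 and mm10, and the annotation release and strand setting are not given in the sources used here. The 5 summary lines of each table were left out (reads outside genes 3.17 to 5.07%, shared between genes 5.84 to 6.51%, aligned to several places 3.88 to 4.77%). Symbols, positions and exon lengths came from GENCODE M21, which held 53706 of 53801 identifiers. Members, lists and tests were chosen with earlier results of these data known.

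Differences were tested in R 4.3.3 by edgeR 4.0.16, with TMM, the default filterByExpr, the quasi-likelihood F test and the Benjamini-Hochberg method. CPM used TMM-scaled library sizes. TPM did not. Permutation tests were exact and two-sided. Counting intervals are exact and cover counting error only. The study calls the 3 samples of a group biological replicates, and the sources used here do not say whether they came from separate infections or cultures, so p-values measure the spread between these RNA samples, which may be technical. Samples differed by more than sampling noise (chi-square per degree of freedom 3.23 to 8.36).

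Genes named are Hdac4, the members, fixed relatives, the 3 largest rises and falls of each cartilage list among called genes with a mean of at least 50 counts, and the closest profiles. Others (marker genes, neighbours, genes sharing exons, link protein genes, genes that passed the filter in 1 group only, genes at 0) were named after their values were seen. On simulated counts with 200 planted changes (13628 genes tested), edgeR recovered 77.1% of log2 changes of 0.5, 90.5% of 1 and 100% of 2, and 11 of 184 calls were false. Changes were planted only in genes with a scramble mean of at least 10 counts, with a common dispersion and no fold change threshold. In the real comparison 75.1% of genes were called, so these rates do not describe it, nor scarce members such as Sox6 and Comp. The osteoblast sum without Col1a1 was added after seeing the data.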

Additional observations from a re-analysis of the deposited data

Results flagged for a closer look

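Reads outside annotated genes, which no comparison above uses, made up 4.64% or more of the reads in each Hdac4-shRNA library and at most 3.41% in each scramble library. They can hold reads of introns and of unannotated transcripts.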

How the results depend on the processing

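The alternatives were other normalizations (DESeq2 size factors, upper quartile, library size alone), other filters, DESeq2 1.42.0, limma-voom 3.58.1, a replicate block, higher thresholds and leaving out each library. Sox5 was called higher under all of these, Runx3 under all but the threshold of 1, and Sox6 and Comp wherever they were tested. At least 10 counts in every library left 5 members tested, without Sox6 and Comp. Prg4 was also called with that filter (log2 fold change 0.53), with library size alone (0.55) and with the upper quartile (0.58), which moved the median of all genes from 0.014 to 0.103. The cause was not tested. The Sox9 log2 fold change turned to -0.01 without a filter. It ranged from -0.01 to 0.086 with single libraries left out, and was negative without Hdac4-shRNA replicate 1 (-0.01), Hdac4-shRNA replicate 3 (-0.0057) or scramble replicate 1 (-0.00085). That of Matn2 turned to -0.0065 without a filter. Thresholds of 0.5 and 1 left 6458 and 3940 of 10914 calls over all genes, and a threshold of 1 left 22 of 37 among the other cartilage genes, as fewer genes pass by construction. Counted over genes that passed the filter in both groups, an alternative chosen after seeing the data, 2 of 5 members and 30 of 35 other cartilage genes were called.

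With each library left out in turn, 4 to 6 members were called, 10578 to 10921 genes in all and 36 to 38 other cartilage genes. The member counts include Chad where it passed the filter, which it could do only through the Hdac4-shRNA libraries. The log2 fold change ranged from -0.46 to -0.42 for Hdac4, from 1.53 to 1.83 for Sox5, from 3.61 to 3.96 for Sox6, from 0.67 to 0.76 for Runx3, from 3.57 to 4.99 for Comp, from 0.0044 to 0.035 for Matn2 and from 0.34 to 0.69 for Prg4. Same-numbered libraries did not deviate together (correlations -0.0111, 0.027 and 0.0166). With the replicate number as a block, 4 members, 10964 genes and 37 other cartilage genes were called and the Hdac4 log2 fold change was -0.44. Depth limits Acan, Hapln1 and Chad, which had at most 16 counts in any library.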
